A study of Homo sapiens with 6 samples.

Results

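Wide H3K27ac regions that were present in control cells and had no counterpart after PKM2 knockdown were examined across the genome. They were defined by 2 measured properties. Each was a called H3K27ac region of the NC library on chromosomes 1 to 22 that was at least 452 bp wide, and no called H3K27ac region of the PKM2-KD library, of any width, overlapped it by even 1 bp. Of 17834 NC regions of this width, 1628 met the second condition, which is 9.13% of the wide NC regions. They are called control-only regions below. The other 16206 wide NC regions are called shared, and 4067 wide PKM2-KD regions that no NC region overlapped are called knockdown-only. Because width and overlap chose the members, the number of members and their want of a knockdown region are descriptions and carry no test.

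The cells were MDA-MB-231, an established line of triple-negative breast cancer, a tumour type without oestrogen receptor, progesterone receptor or HER2 amplification. Chromatin was profiled by CUT&Tag, in which an antibody on the antigen tethers the transposase Tn5 (here as a pA-Tn5 fusion, on cells bound to concanavalin A beads) so that the DNA nearby is cut out and sequenced. H3K27ac and H3T11ph were profiled in cells labelled WT (NC, the control) and cells with PKM2 knockdown (PKM2-KD), and the protein NONO in NC and in cells with NONO knockdown (NONO-KD), which gave 6 libraries with 1 library in each group. With no replicates there is no test between conditions, and every difference below compares these libraries. The study knocked genes down with siRNA, whose control it calls NC, and with shRNA, whose control it calls Scr, and these libraries carry the name NC.

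H3K27ac is acetylated lysine 27 of histone H3, a mark laid down chiefly by the acetyltransferases p300 and CBP and found at active promoters and enhancers. Enhancers lie within introns and between genes as well as near gene starts, and a single gene can be served by many of them. PKM2 is the pyruvate kinase isoform that many tumours favour. Part of it enters the nucleus, and a histone mark there, H3 phosphorylated at threonine 11 (H3T11ph), has been attributed to it. NONO is a nuclear protein that binds both RNA and DNA.

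On chromosomes 1 to 22 the NC library had 556239 called H3K27ac regions and the PKM2-KD library 208488, of which 17834 and 29108 were at least 452 bp wide. The lists had not been made alike. A width of 112 bp, the narrowest in NC, was shared by 79.3% of the NC regions, while 1.19% of the PKM2-KD regions stood at their narrowest width of 113 bp, and the smallest gap between regions was 146 bp in NC and 114 bp in PKM2-KD. A difference in region calling and the knockdown therefore cannot be told apart for any of the regions described here. The depth implied by the 2 lists came out close, at 7.46 fragments per kb in NC and 7.47 in PKM2-KD. Both values take the narrowest width as the fragment length. The NC value also divides the commonest background signal of its list, 0.4351, by a fitted factor of 0.521. In PKM2-KD that factor was 1, on a background of 0.8445. The origin of the factor is not stated, and the closeness of the 2 depths rests on it. Of the genes listed as markers of the line, VIM and CAV1 had 1 wide NC region within 5 kb, CD44 had 6, EGFR 28, AXL 4 and ZEB1 4. Of the luminal genes listed as markers that such cells should lack, ESR1, PGR, ERBB3 and ESRP1 had no wide NC region, but GATA3 had 4. In the longer lists, 10 of 14 mesenchymal genes had a wide NC region (not CDH2, SNAI1, SNAI2 or TWIST1), as did 5 of 14 luminal and epithelial genes (GATA3, KRT8, KRT18, KRT19 and ERBB2). The lists hold no expression values, so the knockdown of PKM2 could not be checked from them. The gene PKM itself had 2 wide regions in NC and 8 in PKM2-KD, and none of the former was control-only.

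The gene starts that control-only regions reached differed in base composition, and 5 stretches are printed to show both kinds. Each stretch is the 250 bases before a RefSeq gene start in GRCh38.p14, read on the strand of the gene, 5′ to 3′, and capitals mark GGGCGG on either strand (CCGCCC when read from the other strand), the short GC box bound by SP and KLF factors. The first 3 starts are rich in CpG. MCAM encodes the adhesion molecule CD146 and is among the genes that the study lists as lowered by both knockdowns. ZNF281 encodes a zinc finger transcription factor and had the strongest control-only region at a CpG-rich start with GC boxes, and TCF7L2 encodes the nuclear effector of Wnt signalling. The last 2, PEX5L and RAI14, are poor in CpG.
MCAM, chr11:119317131-119317380, minus strand: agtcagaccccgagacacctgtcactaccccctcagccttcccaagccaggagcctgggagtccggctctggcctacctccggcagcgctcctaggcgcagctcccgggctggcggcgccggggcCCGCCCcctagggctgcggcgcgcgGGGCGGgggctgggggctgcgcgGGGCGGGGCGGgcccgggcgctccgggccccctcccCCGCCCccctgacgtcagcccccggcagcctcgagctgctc
ZNF281, chr1:200410037-200410286, minus strand: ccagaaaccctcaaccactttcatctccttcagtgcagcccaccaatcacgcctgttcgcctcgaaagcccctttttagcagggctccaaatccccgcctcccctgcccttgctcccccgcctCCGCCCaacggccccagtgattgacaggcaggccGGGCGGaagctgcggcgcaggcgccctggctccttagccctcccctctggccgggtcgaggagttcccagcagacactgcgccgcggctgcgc
TCF7L2, chr10:112949997-112950246, plus strand: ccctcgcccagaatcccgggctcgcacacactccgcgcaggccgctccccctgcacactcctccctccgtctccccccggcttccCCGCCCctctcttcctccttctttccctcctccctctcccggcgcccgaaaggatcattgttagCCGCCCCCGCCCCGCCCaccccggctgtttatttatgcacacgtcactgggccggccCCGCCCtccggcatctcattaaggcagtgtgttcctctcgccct
PEX5L, chr3:179974226-179974475, minus strand: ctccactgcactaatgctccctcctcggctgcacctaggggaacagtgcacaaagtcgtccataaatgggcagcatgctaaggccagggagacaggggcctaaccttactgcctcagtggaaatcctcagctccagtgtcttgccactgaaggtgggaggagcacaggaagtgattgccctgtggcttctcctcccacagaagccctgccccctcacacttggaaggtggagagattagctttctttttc
RAI14, chr5:34684257-34684506, plus strand: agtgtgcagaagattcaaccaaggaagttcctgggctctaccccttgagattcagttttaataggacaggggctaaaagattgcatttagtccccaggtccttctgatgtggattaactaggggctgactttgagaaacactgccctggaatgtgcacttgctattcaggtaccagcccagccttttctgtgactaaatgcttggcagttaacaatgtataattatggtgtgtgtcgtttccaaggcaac
The 250 bases of MCAM held 26 CpG and 5 GC boxes at a GC content of 79.6%, those of ZNF281 18 CpG and 2 GC boxes at 67.2%, and those of TCF7L2 21 CpG and 5 GC boxes at 68.0%. In the stretch of PEX5L there were 2 CpG and no GC box at a GC content of 55.6%, and in that of RAI14 1 CpG and no GC box at 45.2%.

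Control-only regions were narrow for wide regions and weaker than shared regions. Their width ranged from 452 to 1432 bp with a median of 514 bp, against a median of 737 bp in shared regions and 554 bp in knockdown-only regions. The fold, the deposited ratio of summit signal to background within a library, had a median of 6.14 in control-only regions (range 2.04 to 22.5), 11.5 in shared regions and 7.16 in knockdown-only regions. The median −log10 q, the strength of the call, was 6.30, 19.4 and 10.5 in the same order, and 64.3% of control-only regions (95% Wilson interval 62.0 to 66.6%) had a value of at least 5, against 92.2% of shared regions (91.7 to 92.6%). Wilson intervals here and below cover counting error only. These strengths come from the same libraries as the rule and are given as a description. Fold and −log10 q of knockdown-only regions come from the PKM2-KD list, with its other factor and background. They are not on one scale with the NC values.

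**Figure D1:**
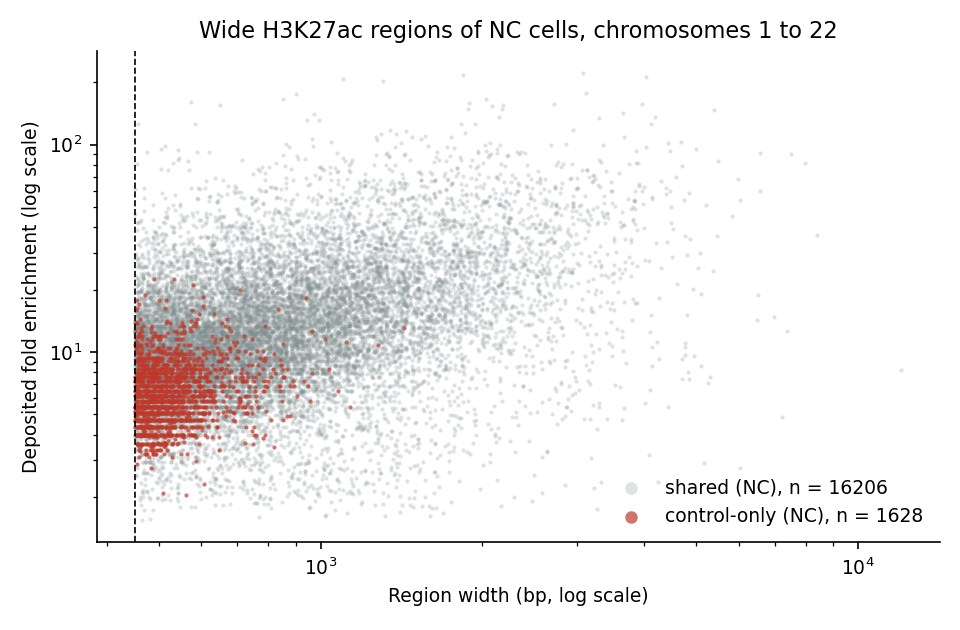
Width in bp against deposited fold enrichment for every wide H3K27ac region of the NC library on chromosomes 1 to 22, both on log axes; each point is 1 region, red for the 1628 control-only and grey for the 16206 shared ones, and the dashed line marks the minimum width of 452 bp. The red points crowd against the line, with a median width of 514 bp and a median fold of 6.14, and none exceeds 1432 bp or a fold of 22.5.

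The height of the summit could be expressed in fragments for each of the 1628 control-only regions, from the deposited fold and −log10 p. The median was 16 fragments, the middle 50% of regions lay between 13 and 21, and the range was 6 to 69. In shared regions whose height could be recovered (14251 of 16206) the median was 37 fragments. In knockdown-only regions (4066 of 4067 recovered) the median was 16 fragments, as in control-only regions, with quartiles of 12 and 22. The NC heights rest on the fitted factor. At the commonest background of its list, the lowest summit called was 5 fragments high in PKM2-KD and 6 in NC. In NC, 1528 control-only regions (93.9%) reached 10 fragments or more, as did 99.8% of shared regions. The lists were not called alike, so the lowest height of one list is no threshold for the other. What the PKM2-KD library held at these places below its calling threshold is not given by a list of called regions. In 1254 of the control-only regions the background was the commonest one of the NC list.

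The share of NC regions without a PKM2-KD region was lower the wider the region. Of NC regions 904 bp or wider, 14 of 5771 (0.243%; 0.145 to 0.407%) had no PKM2-KD region over them, against 1614 of 12063 (13.4%; 12.8 to 14.0%) from 452 to 903 bp, 60.7% from 224 to 451 bp and 91.9% below that. At the edge of the rule the values were close. The 21 control-only regions of exactly 452 bp had a median fold of 6.14, and the 22 NC regions of 451 bp without a PKM2-KD region had 5.74. At the other edge, 10 control-only regions lay within 10 bp of a PKM2-KD region, with a median fold of 6.69, and 17 shared regions were shared through at most 10 bp, with a median fold of 6.87. In shared regions the best PKM2-KD region covered a median of 95.5% of the width, and in 2129 of them (13.1%) it covered less than 50%.

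The distance to the nearest H3K27ac PKM2-KD region was measured for each control-only region. How often other places of the genome have one so near was not counted. The shares below are therefore a description without a background. The nearest PKM2-KD region lay at a median of 2466 bp, with quartiles of 736 and 7434 bp. It was within 1 kb in 495 control-only regions (30.4%; 28.2 to 32.7%), within 5 kb in 1104 (67.8%; 65.5 to 70.0%) and within 25 kb in 1543 (94.8%; 93.6 to 95.8%). Within 25 kb of a control-only summit there was a median of 14 other NC regions and 5 PKM2-KD regions, and within 25 kb of a shared summit 16 and 10. Summed over the regions, NC neighbours outnumbered PKM2-KD ones 2.21 to 1 around control-only and 1.41 to 1 around shared summits, and over the whole lists the ratio was 2.67. The PKM2-KD list chose the 2 sets, and the count at a shared summit includes the PKM2-KD region over it. Part of the contrast between control-only and shared summits is thus built in. The nearest PKM2-KD region was usually small. Where it lay within 1 kb its median width was 192 bp, and in 80 of the 495 cases (16.2%) it was itself at least 452 bp wide.

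The fold varied little with this distance. The median fold was 6.50 in the 495 control-only regions with a PKM2-KD region within 1 kb, 6.35 in the 609 at 1 to 5 kb, 6.14 in the 439 at 5 to 25 kb and 6.09 in the 85 farther away, with quartiles of 5.05 and 7.96 in the first class and 4.69 and 7.96 in the last. The quartiles of these classes overlapped throughout. Only 4 control-only regions were more than 100 kb from a PKM2-KD region, the farthest at 183806 bp.

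The 10 control-only regions with the highest fold lay farther than 1 kb from a gene end in 9 of 10 cases, and 7 of the 10 summits were inside a protein-coding gene. The strongest, at chr4:74218232-74218764 inside MTHFD2L (a mitochondrial enzyme of folate metabolism), was 533 bp wide with a fold of 22.5 and 60 fragments at its summit. A PKM2-KD region of 583 bp with a fold of 9.76 began 183 bp away. The second, at chr12:14256625-14257115, was between genes, 109 kb from ATF7IP, with a fold of 22.4 and 69 fragments, the highest summit of all control-only regions. The third, inside the readthrough gene NDUFC2-KCTD14 on chromosome 11, had a fold of 21.0 and 56 fragments. These 3 had a PKM2-KD region within 1 kb.

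The next ones covered a range of genes. A region of 708 bp inside CDH4, which encodes R-cadherin, had a fold of 19.9 and 53 fragments, and a PKM2-KD region of 143 bp lay 1178 bp away. A region inside EAF1, a partner of the elongation factor ELL, had a fold of 18.8 and lay 998 bp from the end of the neighbouring gene METTL6, with a PKM2-KD region of 220 bp 95 bp away. The region inside SLC35D4 (fold 18.5) was the only one of the 10 that overlapped a region of another library, namely H3T11ph in PKM2-KD, and 1486 bp from it stood a PKM2-KD H3K27ac region of 929 bp with a fold of 31.4. A region of 938 bp inside HSD17B12, an enzyme of long-chain fatty acid elongation, had a fold of 18.1, and its nearest PKM2-KD region lay 11.6 kb away. The remaining 3 had folds of 17.8 and summits of 47 fragments. They lay 62.6 kb from PI15, 50.7 kb from RGS9, and inside SMOC2, which encodes a secreted matrix protein, with the nearest PKM2-KD region at 2.66, 7.58 and 18.3 kb.

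The 5 widest showed no wider gap in the knockdown list. The widest, 1432 bp at chr17:56164913-56166344 inside ANKFN1, had a fold of 13.0, and a PKM2-KD region of 280 bp began 110 bp from its edge. The second, 1279 bp at chr14:92960541-92961819 inside ITPK1 (an inositol phosphate kinase), had a fold of 10.9 with a 114 bp PKM2-KD region 680 bp away. A region of 1135 bp inside PPP1R12A, the targeting subunit of myosin phosphatase, had a fold of 5.42, and its nearest PKM2-KD region was 16 kb off. The other 2 were between genes, 1116 bp wide at 2.48 kb from CMBL with a fold of 11.2, and 1080 bp wide at 55.9 kb from SNRNP48 with a fold of 6.50.

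Control-only regions were seldom near genes' ends. Of the 1628, 99 (6.08%; 5.02 to 7.35%) lay within 1 kb of either end of a protein-coding gene, against 23.5% of shared regions (22.8 to 24.2%) and 17.4% of knockdown-only regions (16.3 to 18.6%). The share was 17.4 percentage points lower than in shared regions (95% Newcombe interval of the difference −18.7 to −16 points) and 11.4 points lower than in knockdown-only regions (−13 to −9.65 points). Among regions of like width, from 452 to below 678 bp, the difference from shared regions was −15.9 points (−17.4 to −14.2 points), and with −log10 q also held between 5 and 10 it was −17.5 points (−20.0 to −14.7 points). The difference remained in both bands.

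Gene starts, which are known with their strand for 82.0% of protein-coding genes on 21 chromosomes (chromosome 8 is not used here for starts), gave the same picture. A start was within 1 kb of 72 of 1531 control-only regions (4.70%; 3.75 to 5.88%), 22.4% of shared regions and 14.8% of knockdown-only regions. The median distance to a start was 52.4 kb in control-only regions, 28.5 kb in shared and 28.6 kb in knockdown-only regions. The body of genes held most of the rest. On the same chromosomes, 783 control-only regions (51.1%) had their summit inside a gene and lay farther than 1 kb from any start, against 42.3% of shared regions, and 676 (44.2%) were between genes against 35.3%. Counted over all 22 chromosomes, 53.9% of control-only summits were inside a protein-coding gene (51.5 to 56.3%), 3.54 points below shared regions (interval −6.08 to −1.01 points).

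**Figure D2:**
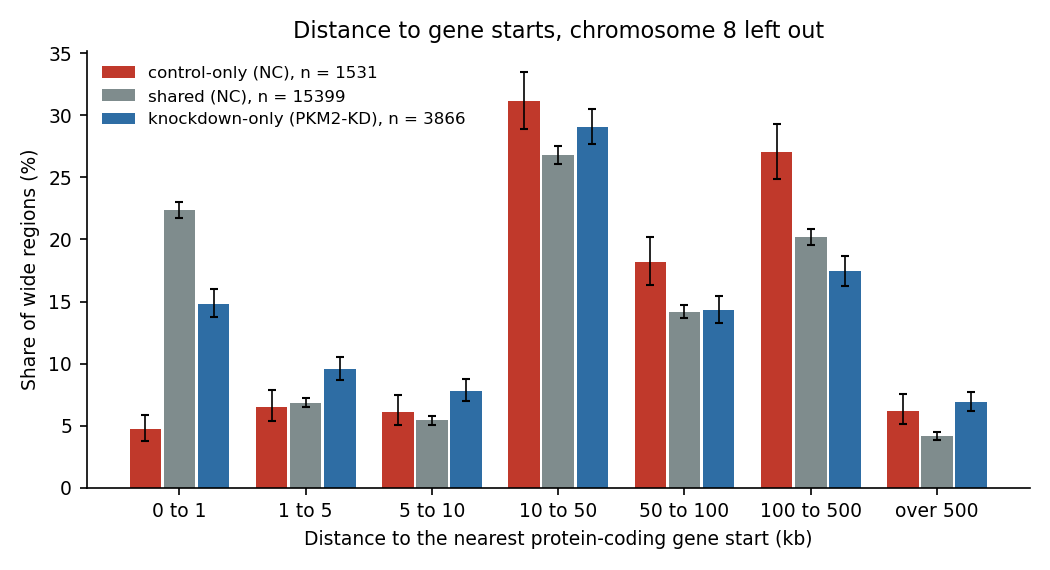
Share of wide regions (%, bars) in classes of distance in kb to the nearest start of a protein-coding gene, with chromosome 8 left out, for control-only (red), shared (grey) and knockdown-only (blue) regions; error bars are 95% Wilson intervals. In the class up to 1 kb the red bar stands at 4.70% against 22.4% and 14.8%, and from 100 to 500 kb it stands at 27% against 20.2% and 17.4%.

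Most control-only regions had no other of their kind within 25 kb. Another control-only region lay within 25 kb of 122 of them (7.49%; 6.31 to 8.88%), and 31.5% of knockdown-only regions had another of their own kind so near. The sets differ in number, so these shares are given side by side only. The share for an even spread over the genome was not computed. The 122 formed 59 runs, 4 of them with 3 members and none with more. Those 4 runs were in CAMK1D, FAM53B and IQSEC1 and, in a stretch of 17.0 kb on chromosome 10, outside protein-coding genes. A shared wide region was within 25 kb of 481 control-only regions (29.5%; 27.4 to 31.8%), against 48.9% (47.3 to 50.4%) of knockdown-only regions.

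Every chromosome from 1 to 22 held some. The control-only share of wide NC regions went from 2.79% on chromosome 21 (5 of 179; 1.2 to 6.37%) to 11.6% on chromosome 10 (175 of 1503; 10.1 to 13.4%). Chromosomes 22, 6 and 11 were also at the upper end, with 11.5% (25 of 218), 11.2% (150 of 1337) and 11% (113 of 1023). The intervals of chromosomes 6, 10 and 11 lay above the 9.13% of all wide NC regions, and those of chromosomes 19 (6.60%, upper bound 9.08%) and 21 lay below it. The intervals of the other 17 chromosomes held that value. The rule itself produced these shares, 22 chromosomes were looked at, and neighbouring regions are not independent. The intervals are therefore a description and set no chromosome apart.

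**Figure D3:**
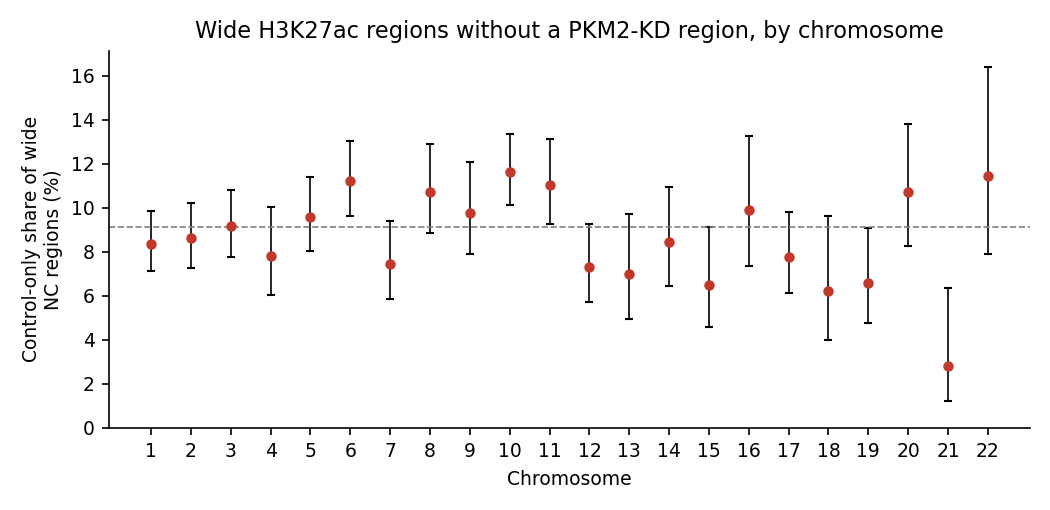
Control-only share of the wide H3K27ac regions of NC cells (%) on each of chromosomes 1 to 22; points are shares, error bars 95% Wilson intervals, and the dashed line is the share over all 22 chromosomes, 9.13%. Chromosome 21 stands lowest at 2.79%, from 179 regions, and chromosome 10 highest at 11.6%.

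The other 4 libraries, which the rule did not use, had regions over few of these places. An H3T11ph region of NC cells overlapped 48 control-only regions (2.95%; 2.23 to 3.89%) against 16% of shared regions, a difference of −13.1 points (−14 to −12 points). An H3T11ph region of PKM2-KD cells overlapped 37 (2.27%; 1.65 to 3.12%) against 20.4%, a difference of −18.1 points (−19.0 to −17.1 points). NONO in NC cells overlapped 86 (5.28%; 4.30 to 6.48%) against 17.3%, a difference of −12.1 points (−13.2 to −10.7 points), and NONO in NONO-KD cells 29 (1.78%; 1.24 to 2.55%) against 5.56%, a difference of −3.78 points (−4.43 to −2.94 points). At least 1 of the 4 lists reached 180 control-only regions (11.1%; 9.62 to 12.7%) and 40.7% of shared regions.

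Knockdown-only regions, which are the closer match in width and strength, were also overlapped more often. The shares there were 8.95% for H3T11ph NC, 7.82% for H3T11ph PKM2-KD, 11.7% for NONO NC and 6.12% for NONO-KD, and the interval of each difference from control-only regions lay wholly below 0. In the band from 452 to below 678 bp the differences from shared regions shrank but stayed below 0, at −7.45 points for H3T11ph NC (−8.46 to −6.28 points), −10.7 for H3T11ph PKM2-KD, −7.07 for NONO NC and −2.46 for NONO-KD (−3.20 to −1.55 points). Regions of a list are neighbours on shared chromatin and not independent draws, so these intervals are narrower than the true uncertainty.

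**Figure D4:**
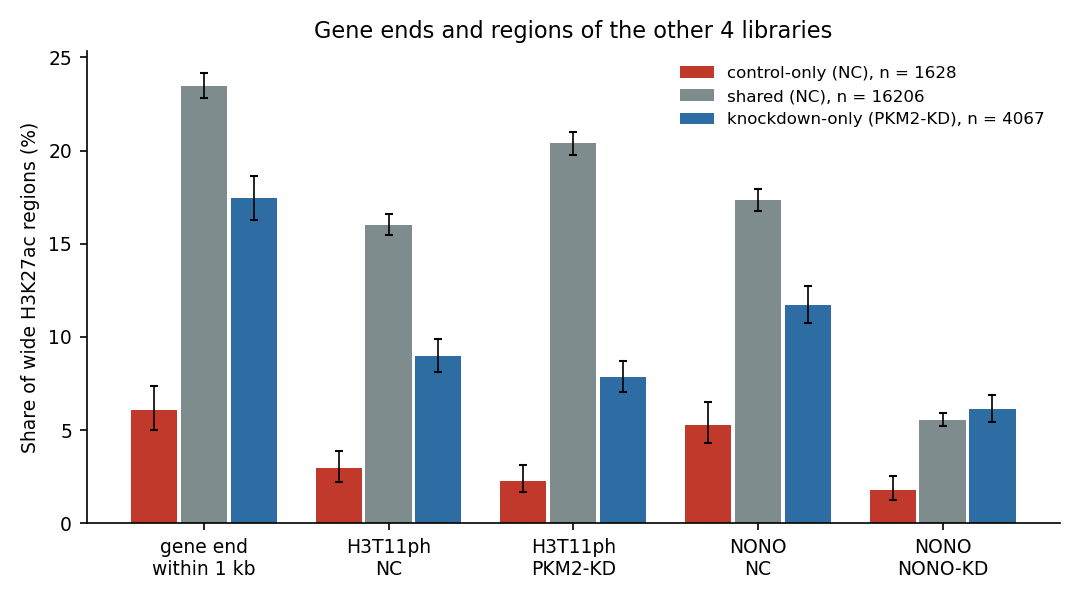
Share of wide H3K27ac regions (%, bars) with a protein-coding gene end within 1 kb and with an overlapping region of each of the other 4 libraries, for control-only (red), shared (grey) and knockdown-only (blue) regions; error bars are 95% Wilson intervals. The red bars lie between 1.78% and 6.08% and are the lowest of the 3 in every group.

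H3T11ph at control-only regions was nearly always seen in only 1 of the H3T11ph libraries, as it was over the whole H3T11ph lists. Of the 48 control-only regions with H3T11ph in NC, 1 also had it in PKM2-KD, and of the 37 with it in PKM2-KD, 36 lacked it in NC. The single place with both was a region of 687 bp at chr7:76392801-76393487 inside SSC4D, with an H3K27ac fold of 6.75. Counted from H3T11ph itself, 51 NC regions overlapped a control-only region and 1 of them (1.96%; 0.347 to 10.3%) was met by an H3T11ph region of PKM2-KD, against 869 of 2846 (30.5%; 28.9 to 32.3%) at shared regions, a difference of −28.6 points (−30.9 to −20.1 points). Over all 41692 H3T11ph NC regions, 94.2% had no PKM2-KD counterpart, and the interval at control-only regions held the 5.79% of that whole list with a counterpart. In the other direction, 7.04% of all 35720 H3T11ph PKM2-KD regions had an NC counterpart. At control-only regions 1 of 37 did (2.70%; 0.479 to 13.8%), and that interval also held the share of the whole list. For NONO, 98.0% of NC regions had no counterpart in NONO-KD, and at control-only regions 82 of 85 had none.

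The strongest control-only regions with H3T11ph in NC and none in PKM2-KD were a region of 524 bp at chr2:71618182-71618705 inside DYSF, the muscle membrane repair gene dysferlin, with an H3K27ac fold of 13.8, and a region of 456 bp 1.55 kb from FOXD4L1 with the same fold. A region of 508 bp inside PPIL6, 826 bp from the end of SMPD2, followed with a fold of 11.9 and 36 fragments. It lay 254 bp from an H3K27ac PKM2-KD region of 1608 bp. Next came regions 22.8 kb from SORCS3 (fold 10.9), inside MDGA2 (10.5) and 26.0 kb from MRGPRX2 (9.09). A region inside EVPL, which encodes the cornified envelope protein envoplakin, and regions inside RASGEF1C and GRAMD4 had folds of 9.05 each. So did a region 51.2 kb from PTPRM. The GRAMD4 region lay 33 bp from an H3K27ac PKM2-KD region of 134 bp.

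At the level of genes, 963 of 19126 protein-coding genes (5.04%) had a control-only region within the gene or 5 kb of it. That is 13.7% of the 7018 genes with any wide NC region. Of the 963, 868 had 1 such region, 73 had 2, 19 had 3 and 3 had 4. A shared wide region was also present at 505 (52.4%), and a knockdown-only wide region at 241. Genes with a control-only region were long, with a median of 86.5 kb against 44.3 kb for genes with any wide NC region and 24.5 kb for all genes.

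The genes with most control-only regions had 4 each. CAMK1D, a calcium- and calmodulin-dependent kinase gene of 486 kb, had 11 wide NC regions, of which 4 were control-only, and 23 wide PKM2-KD regions, of which 5 were knockdown-only. Its control-only regions had folds of 8.32, 4.33, 15.2 and 6.14, and the strongest, 634 bp at chr10:12597132-12597765, lay 3.59 kb from its nearest PKM2-KD region. IQSEC1, which encodes an exchange factor for the small GTPase ARF6, had 4 wide NC regions and all were control-only, with folds from 5.78 to 8.32. It had 126 NC and 50 PKM2-KD regions of any width, and none of the 50 was wide. KIRREL3, an adhesion molecule gene of 580 kb, had 8 wide NC regions, 4 of them control-only with folds from 3.96 to 7.11, and 8 wide PKM2-KD regions. One of the 4 lay 4002 bp from ST3GAL4, its nearest gene.

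A further 19 genes had 3 control-only regions each. The 7 with the highest fold at one of these were TCF7L2, ANKFN1, ATP8A2 (a phospholipid flippase), CELF2 (an RNA-binding splicing regulator), SORCS2 (a neuronal sorting receptor), ANKS1A and LRMDA. Their lengths ran from 209 kb in ANKS1A to 1129 kb in LRMDA. In CELF2 the 3 stood among 27 wide NC regions and 32 wide PKM2-KD regions, in TCF7L2 among 5 and 4, and in LRMDA among 4 and 6.

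Some genes with control-only regions had no PKM2-KD region at all within the gene or 5 kb of it. There were 16 such genes among the 963, of which 5 had a control-only region within 1 kb of an end. How many of the other genes also lacked any PKM2-KD region was not counted, so the 16 have no background to be read against. MIIP, which encodes an inhibitor of cell migration and invasion, had 2 control-only regions at that end, with folds of 7.59 and 3.10 and summits of 19 and 10 fragments. The nearer one, chr1:12031434-12031946, was 99 bp from the gene end and 14.5 kb from a PKM2-KD region. C7orf33 had a region of 545 bp with a fold of 6.50, SCGB1D2 (a secretoglobin) one of 622 bp with 6.14, and ACTL6B (a neuronal subunit of the BAF chromatin remodelling complex) one of 707 bp with 5.97. GOLGA8M had one of 534 bp with a fold of 5.05, and since it belongs to a family of near-identical copies, the assignment of its reads is uncertain. These genes had few regions in NC as well, between 2 at GOLGA8M and 10 at ACTL6B.

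Of the genes that the study lists as lowered by both knockdowns, 3 of the 9 examined had a control-only region, and 7 had a shared wide region. Over all protein-coding genes 5.04% had a control-only region, and 13.7% of those with a wide NC region did, but 9 genes are too few to set this list apart. The study drew this list from cells of the same line, so it is not independent of the knockdown. MCAM had a control-only region of 542 bp at chr11:119317307-119317848, with a fold of 9.77 and 25 fragments. It ended 177 bp before the gene start and reached into the upstream stretch printed above. In PKM2-KD a region of 1456 bp with a fold of 16.5 lay 187 bp farther upstream, and a region of 164 bp began 248 bp inside the gene. Within 5 kb of MCAM there were thus 3 wide NC and 5 wide PKM2-KD regions. No region of the H3T11ph or NONO libraries overlapped the control-only region at MCAM.

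At CDKN1A, which encodes the cell cycle inhibitor p21, the control-only region was 625 bp wide at chr6:36673661-36674285, with a fold of 6.32 and 20 fragments, and it lay 2.18 kb from the gene. A PKM2-KD region of 113 bp with a fold of 3.54 was 551 bp away. The other wide NC region at CDKN1A, 0.525 to 1.018 kb past the start used in its map and with a fold of 10.2, was shared, and the PKM2-KD region over it had a fold of 11.3. FERMT2, which encodes the integrin activator kindlin-2, had 2 control-only regions. The one upstream of its start was 682 bp wide at chr14:52951538-52952219 and 488 bp from the gene, with a fold of 12.7, and an 839 bp PKM2-KD region with a fold of 5.89 lay 307 bp away across the start. The other, 466 bp inside the gene and 39.3 kb from its end, had a fold of 3.96 and 9 fragments. Each of these 3 genes also had at least 1 shared wide region.

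**Figure D5:**
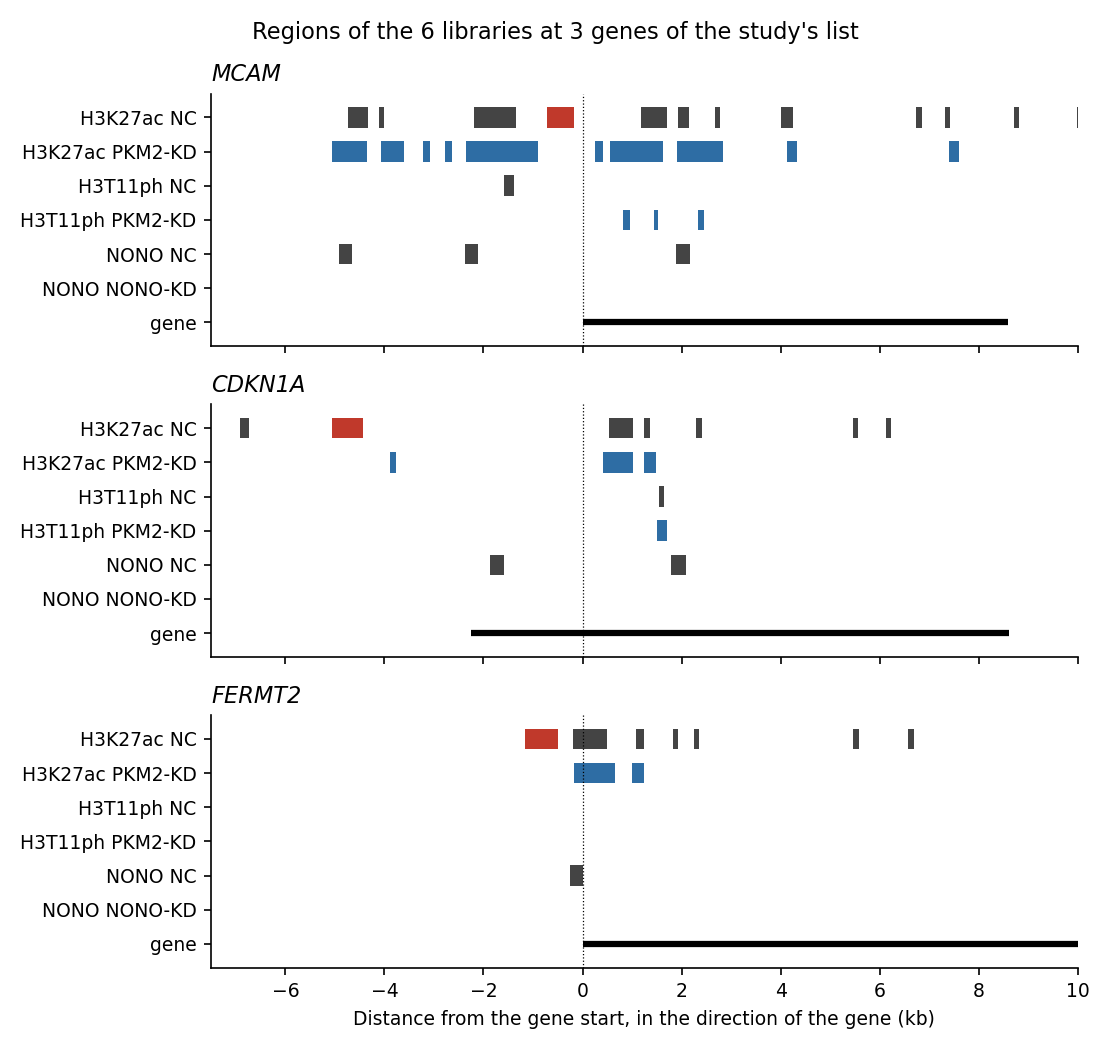
Called regions of the 6 libraries (blocks, one track per library) against distance in kb from the gene start for MCAM, CDKN1A and FERMT2, in the direction of each gene, with the gene as a black line and regions listed up to 5 kb beyond it; control-only H3K27ac regions are red, other NC regions dark grey and regions of knockdown cells blue. The red block ends 177 bp before the start of MCAM and 488 bp before that of FERMT2, with blue H3K27ac PKM2-KD blocks beside but not under it. The panels are cut to the part around each start. Regions farther off, among them the second control-only region of FERMT2 at 54.0 kb past its start, are not drawn.

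The remaining lists held few. Of 9 genes for surface receptors and caveolae of basal-type cells, EGFR and NT5E had 1 control-only region each. At EGFR, 1 of 28 wide NC regions was control-only, 501 bp with a fold of 11.9, and a PKM2-KD region of 2461 bp with a fold of 54.7 began 175 bp away. At NT5E, which encodes the ectonucleotidase CD73, 1 of 9 was control-only, with a fold of 5.05. Of 17 acetyltransferase and deacetylase genes, 8 had a wide NC region. HDAC7 had 3, of which 1 was control-only, 609 bp wide with a fold of 5.42. KAT5, the gene of TIP60, which the study links to H3K27ac, had 0 wide NC regions and 3 wide PKM2-KD regions, none of them knockdown-only. EP300 and CREBBP, the genes of p300 and CBP, had only 1 and 0 wide NC regions, 1 and 0 wide PKM2-KD regions, and no control-only region. No gene had one among 10 AP-1 genes, 13 of the YAP and TEAD pathway, 14 of the mesenchymal program, 14 of luminal and epithelial identity, 17 of glycolysis, 15 of inflammatory cytokines and chemokines and 12 integrins, although 6, 12, 10, 5, 12, 8 and 10 of them had a wide NC region. Against the 13.7% of genes with a wide NC region over all genes, lists of this size allow no reading of a count of 0.

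Control-only regions overlapped 47 promoter windows of 300 bases (250 before and 50 after a gene start), which belong to 30 protein-coding and 14 other genes and were reached by 40 different regions. Among the protein-coding ones the strongest were RCAN2 (a regulator of calcineurin, fold 13.4), ZNF281 (13.0), PEX5L (11.9), PDIK1L (11.6), AGK (10.1), MCAM (9.77) and ADAM19, a membrane metalloprotease (9.41). JUP, which encodes the junction protein plakoglobin, had a region with a fold of 3.96 and 9 fragments and its nearest PKM2-KD region 8899 bp away. TCF7L2 had a fold of 3.33 with 62 fragments and APC, the scaffold of the Wnt destruction complex, 2.08 with 54 fragments, both over a raised local background. Of the 30 genes, 12 had a PKM2-KD region within 1 kb of the start and 6 had none within 5 kb.

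The base composition of these windows was mixed. A ratio of observed to expected CpG of at least 0.6 was found in 24 of the 47 (51.1%; 37.2 to 64.7%), against 82.4% of 4444 windows under shared regions and 48.9% of all 33558 windows, so that the control-only windows were 31.4 points below the shared ones (−45.2 to −17.7 points). The GC box GGGCGG, on either strand, was in 44.7% of control-only windows, 66.2% of shared windows and 45.0% of all windows, a difference of −21.5 points from shared (−34.8 to −7.33 points). The GC box itself holds a CpG, so these 2 measures overlap. For the E-box CANNTG (61.7% against 59.9% shared and 68.7% of all windows), the NF-Y motif CCAAT (38.3% against 33.3% and 34.4%), the TEAD motif GGAATG (19.1% against 12.5% and 14.1%) and the AP-1 motif TGANTCA (2.13% against 7.97% and 7.68%), all on both strands, the interval of the difference from shared windows included 0. The E-box interval ran from −12.6 to 14.4 points and that of AP-1 from −7.78 to 3.18 points. A match is a run of letters and not a bound site, and windows of neighbouring starts share bases.

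One of 1461 microRNA hairpins on chromosomes 1 to 22 lay in a control-only region. It was MIR218-2, inside the gene SLIT3, at chr5:168768146-168768255 on the minus strand. Both of its mature products are shown because they are the only ones, with the seed (bases 2 to 8) in capitals, from RefSeq on GRCh38.p14.
hsa-miR-218-5p: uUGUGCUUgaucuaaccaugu
hsa-miR-218-2-3p: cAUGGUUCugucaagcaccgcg
The 2 seeds differ. The region, chr5:168767730-168768347, was 618 bp wide with a fold of 4.41 and 15 fragments, and a PKM2-KD region lay 960 bp away. Whether the microRNA is expressed in these cells is not given by these files.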

How the data were processed

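CUT&Tag libraries of MDA-MB-231 cells were deposited as 1 list of called regions per library, grouped by title. Each deposited list gives, per region, a score (the whole part of 10 times −log10 q), a fold (the ratio of summit to background), −log10 p, −log10 q and the summit position. Per the submitters' processing notes the tools were FastQC 0.11.9, cutadapt 1.18, SAMtools 1.3.1, MACS2 2.1.1.20160309 and DESeq2, on hg38; the aligner, duplicate handling and any control are not given in the sources used here. The authors' lists hold no read totals, so depth and precision rest on the recovered fragments.

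Regions were compared with Python 3.11.15 (numpy 2.4.6, pandas 2.3.3, scipy 1.17.1), by overlap of at least 1 bp. Whole summit heights n and backgrounds were sought for which (r × n + 1)/(background + 1) gave the deposited fold and the Poisson tail gave −log10 p within 0.002. The factor r was 0.521 for H3K27ac NC and 1 for PKM2-KD; its origin is not stated. Of the rows tried with −log10 p below 200, 99.6% and 100% were matched. Gene ends came from the RefSeq table of GRCh38.p14 (19126 protein-coding genes), gene starts and windows from its promoter table. Shares carry 95% Wilson intervals and differences 95% Newcombe intervals, for counting error alone. With 1 library per group, p-values were not calculated. The functions for overlap, intervals and heights were tested on simulated data.

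The regions named were the 10 with the highest fold and the 5 widest. The genes named were the 10 with most control-only regions within 5 kb (ties ordered by highest fold), every gene of 10 fixed lists with one, and up to 10 genes with one within 1 kb of an end and no PKM2-KD region within 5 kb. Promoters, the microRNA and regions with H3T11ph were chosen after their values were seen. The control-only regions and the gene lists were chosen with earlier results of these data known. Alternatives changed the overlap, window, width, strength and chromosomes; gene starts and the joint band of width and strength were added after the data were seen. No genome sequence was used, so base composition covers promoter windows only.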

Additional observations from a re-analysis of the deposited data

Results flagged for a closer look

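Chromosome X was outside the counts above and held the same kind of region. Of 353 H3K27ac NC regions at least 452 bp wide there, 23 had no overlapping PKM2-KD region, a share of 6.52% (95% Wilson interval 4.38 to 9.59%). That interval holds the 9.13% found on chromosomes 1 to 22.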

How the results depend on the processing

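Of 58 alternatives over 12 results, 35 stayed within the main interval, or within 1.5 times for the number of regions, and 23 moved. Counts and single shares have no direction, so only the 25 alternatives of the 5 differences could reverse. In each of these the control-only share stayed below the shared one with an interval wholly below 0. The number of control-only regions moved most. It was 3757 when a PKM2-KD region had to cover at least 50% of the NC region, 1047 with −log10 q of at least 5 in NC alone and 14 at 904 bp or wider. With a window of 2.5 kb, 12.3% lay near a gene end, and with gene starts 4.70%. When a region within 1 kb counted as overlap, the shares were 7.56% for H3T11ph NC, 6.33% for H3T11ph PKM2-KD, 14.8% for NONO NC and 5.59% for NONO-KD, and the differences from shared regions were −15.5 points, −22.7 points and −13.5 points for the first 3. In the width band the differences were −15.9 points for gene ends, −7.45 for H3T11ph NC, −10.7 for H3T11ph PKM2-KD, −7.07 for NONO NC and −2.46 for NONO-KD. With −log10 q between 5 and 10 as well, they were −6.82, −6.98, −7.00 and −2.30 for the 4 lists, and the H3T11ph NC share was 2.16%. Only H3T11ph NC regions with −log10 q of at least 5 gave a difference of −11.8 points. The cause of these moves was not tested beyond what each setting changes by construction.

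No paired analysis was possible because the labels give 1 library to every group. The H3K27ac lists of NC and PKM2-KD were not called alike, so that region calling and knockdown cannot be told apart, and a list of called regions does not show signal below its threshold.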
